A study of Mus musculus with 6 samples.

Results

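The genes described here are the FOXO transcription factors and a set of genes tied to FOXO activity and cell quiescence: Foxo1, Foxo3, Foxo4, Pik3ip1, Irs2, Cdkn1b, Ccng2, Pdcd4, Fbxo32 and Cited2. All probes whose platform annotation carries the gene ID of 1 of these 10 genes were taken, which gave 22 of the 45281 probes on the array. FOXO proteins are forkhead transcription factors that sit at the end of the insulin and growth factor pathway. When growth factors activate PI3 kinase and AKT, AKT phosphorylates FOXO proteins and they leave the nucleus. When growth factors are withdrawn, FOXO proteins return to the nucleus and switch on genes of cell cycle arrest, growth restraint, protein breakdown and stress resistance. Much of FOXO control is therefore exerted on the protein and its location, which an mRNA array does not measure.

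The cells were MC38, a colon carcinoma line of C57Bl/6 background, and their total RNA was hybridised to 6 Illumina mouse bead arrays of 1 colour, 2 per group. Control cells were kept in normal growth medium without treatment. Unstimulated cells were starved of serum for 16 h and received no S100A8/A9, and stimulated cells were starved for 16 h and then received S100A8/A9 at 10 µg/mL for 6 h. S100A8/A9 is a calcium-binding protein pair released by neutrophils and monocytes. Both starved groups are labelled as kept in reduced serum, but it is not stated whether unstimulated cells stayed in it for the further 6 h. Whether the replicates were separate cultures is not stated either, so the p-values speak only of the variation among these arrays, which may be technical. Between 14877 and 16176 probes were detected per array, where detected means a detection p-value below 0.01 against the negative control beads of that array, and median raw signals lay between 90.2 and 97.4. None of 12 epithelial markers, Epcam, Krt8 and Krt18 among them, was detected on 2 or more arrays, although the line is labelled colon carcinoma. The same held for the 6 leukocyte, 4 endothelial and 5 skeletal muscle markers that had a probe. Of 10 fibroblast and mesenchymal markers, 7 were detected on at least 2 arrays. The summed normalized intensity of all 10 was 13229 to 19178 on control, 23603 to 29851 on unstimulated and 25008 to 28921 on stimulated arrays. Lum, Fap and Thy1 were detected on no array. Of the 7 detected, 5 rose and 1 fell in unstimulated against control cells, where 17.1% of all tested genes rose and 13.7% fell. The part of this shift in the rises reported below was not tested.

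A gene was tested if a probe was detected on at least 2 of the 6 arrays, and its brightest such probe stood for it. On that rule 9 of the 10 genes were tested among 8909 genes in all, through 16 of the 22 probes. The exception was Foxo4. Of the 9 tested genes, 8 were detected on all 6 arrays and Pik3ip1 on the 4 starved arrays. Pik3ip1 therefore met the filter only through the groups where it was high, so it had to differ from control. Fold changes, standard errors (SE) and 95% intervals below are from limma on normalized log2 intensities with n = 2 arrays per group, with p-values adjusted by Benjamini-Hochberg across the 8909 genes. The threshold for a call was an adjusted p-value below 0.05.

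Against control cells, unstimulated cells had higher mRNA of Pik3ip1, Pdcd4, Ccng2 and Fbxo32, 4 of the 9 tested genes. Across all tested genes 17.1% were called higher and 13.7% lower in this comparison. None of the 9 was called lower. The median log2 fold change of the 9 was 0.56, beside -0.0016 over all tested genes. The genes were chosen with earlier results of these arrays known, so this count is a description of them. Against the same control arrays, stimulated cells had 5 of the 9 called higher and none lower, where 15.9% of all genes were called higher and 13.2% lower. The fifth gene was Foxo3. Pik3ip1, which met the filter only through starved arrays, is in both counts and adds no support to them. Both comparisons share the control arrays, so their estimates are not independent. Adding S100A8/A9 to starved cells called none of the 9 (limma), where 0.0786% of all genes were called. Of the 9, only Fbxo32 had an unadjusted p-value below 0.05 there, as did 8.19% of all genes. Between unstimulated and control arrays, 8 of the 9 genes had no overlap and were higher, and none was lower without overlap (34.7% and 33.8% of all genes). Between stimulated and control arrays these counts were 6 and 1 (32.8% and 33% of all genes), and between stimulated and unstimulated arrays 2 and 4 (18.5% and 20%). Pik3ip1 is also among the 8 and the 6 that were higher without overlap, and adds no support to these counts.

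**Figure D1:**
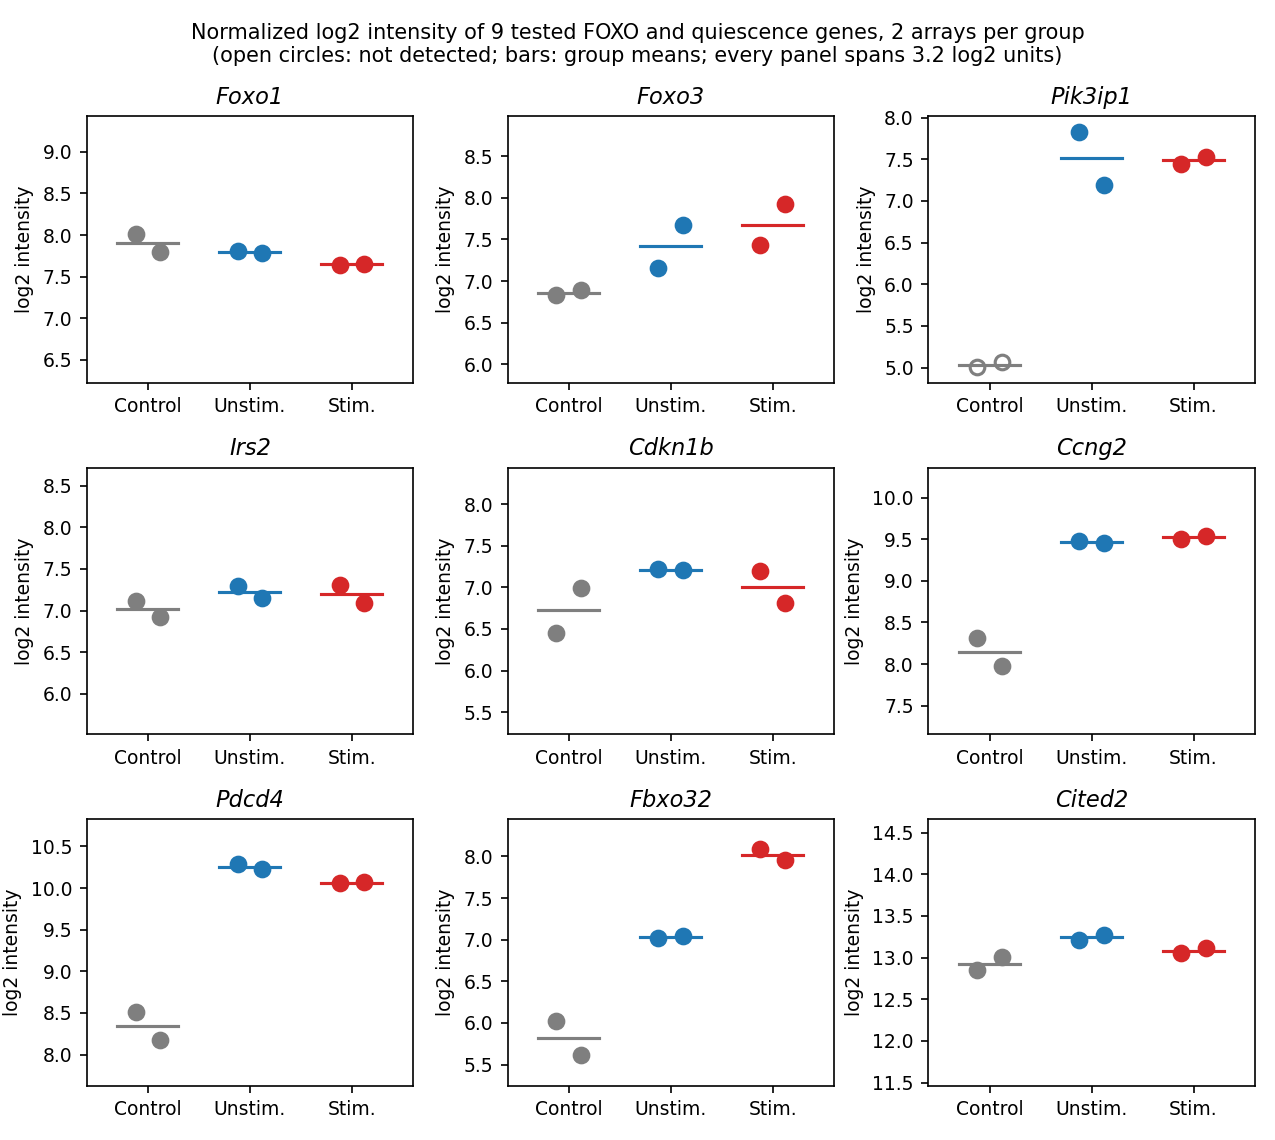
Normalized log2 intensity of the brightest probe of each of the 9 tested genes on every array, by group, with open circles for arrays on which the probe was not detected and bars for the group means; every panel spans the same log2 range. Pik3ip1, Pdcd4, Ccng2 and Fbxo32 have all 4 starved arrays above both control arrays, and Fbxo32 alone of these has both stimulated arrays clearly above both unstimulated arrays.

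Of the FOXO factors, Foxo3 was called in stimulated against control cells, Foxo1 was called in no comparison and Foxo4 could not be measured. The brightest probe of Foxo1 had raw signals of 308.7 and 322.3 on the control arrays, 313.0 and 289.9 on the unstimulated arrays and 241.9 and 267.5 on the stimulated arrays. The stimulated arrays were the lowest of the 6, while unstimulated and control arrays overlapped. On the normalized scale Foxo1 differed by -0.10 ± 0.15 SE in unstimulated against control cells (adjusted p = 0.624), with a 95% interval of -0.43 to 0.23. The upper end of the interval lies below the estimates of the 4 called genes. The difference was -0.26 ± 0.15 in stimulated against control cells (adjusted p = 0.215) and -0.16 ± 0.15 in stimulated against unstimulated cells (adjusted p = 0.842). The other Foxo1 probe was detected on 0 arrays, with raw signals of 80.9 to 92.0.

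Foxo3 lay at 177.0 and 203.2 raw units on control arrays, at 226.9 and 273.7 on unstimulated arrays and at 219.3 and 308.4 on stimulated arrays. All 4 starved arrays were above both control arrays, and the starved groups overlapped each other. Normalized log2 intensities showed the same order, at 6.84 and 6.89, 7.16 and 7.68, and 7.44 and 7.92. Foxo3 rose 1.76-fold in stimulated against control cells (log2 fold change 0.82 ± 0.22 SE, 95% interval 0.33 to 1.30, adjusted p = 0.0214). This call was lost without stimulated replicate 2 (0.57, adjusted p = 0.111), without control replicate 1 (0.79, adjusted p = 0.0868) and without control replicate 2 (0.84, adjusted p = 0.0685). In unstimulated against control cells the estimate was 0.56 ± 0.22 and did not pass (adjusted p = 0.0802, 95% interval 0.07 to 1.04), and the step from unstimulated to stimulated cells was 0.26 ± 0.22 (adjusted p = 0.812). That Foxo3 passed against control cells in stimulated and not in unstimulated cells thus shows no difference between those starved groups. The 2 other Foxo3 probes were detected on 0 arrays, with raw signals of 66.9 to 105.1.

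Foxo4 has a single probe, whose raw signals ran from 81.2 to 96.7 over the 6 arrays. It was not well above background on any array, so neither its level nor a fold change is given.

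Pik3ip1 and Irs2 act upstream of AKT and FOXO. Pik3ip1 encodes a membrane protein that binds PI3 kinase and lowers its activity. Its single probe read 99.6 and 105.3 raw units on control arrays, 316.0 and 215.2 on unstimulated arrays and 219.6 and 251.0 on stimulated arrays. Neither control array reached detection (detection p-values 0.0983 and 0.0588), whereas all 4 starved arrays had a detection p-value of 0. Because control cells give only an upper limit, the rise is stated as a bound. It is set by the lowest detected signal on each control array and the mean of the starved group. Bounds given below for other genes are set in the same way. Pik3ip1 was at least 3.65-fold higher in unstimulated cells (adjusted p = 0.000109) and at least 3.59-fold higher in stimulated cells (adjusted p = 9.2e-05). Because the probe met the filter only through the starved arrays, these p-values add no support. These bounds hold for background-corrected values: in the deposited log2 table, without background correction, the differences were smaller, at 1.33 and 1.30 on the log2 scale, and they were 1.70 and 1.67 with a normexp offset of 50. The measured group means of normalized log2 intensity were 5.04 in control, 7.51 in unstimulated and 7.49 in stimulated cells. The 2 starved groups overlapped, the unstimulated replicates lay the farthest apart (7.83 and 7.19), and stimulated minus unstimulated was -0.024 ± 0.20 (adjusted p = 0.990, 95% interval -0.49 to 0.44).

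Irs2 encodes an adaptor that carries the signal from the insulin and IGF1 receptors to PI3 kinase, and it is a FOXO target in liver. Its probe read 199.0 and 206.7 on control arrays, 240.6 and 211.5 on unstimulated arrays and 206.4 and 202.6 on stimulated arrays. The 3 groups lay within a narrow band, with unstimulated arrays above control arrays and stimulated arrays inside the control range on this raw scale. After normalization Irs2 differed from control cells by 0.20 ± 0.16 in unstimulated cells (adjusted p = 0.354, 95% interval -0.15 to 0.56) and by 0.18 ± 0.16 in stimulated cells (adjusted p = 0.431). The upper ends of the intervals correspond to 1.47-fold and 1.44-fold. Stimulated and unstimulated cells differed by -0.027 ± 0.16 (adjusted p = 0.980).

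Cdkn1b, Ccng2 and Pdcd4 restrain proliferation. Cdkn1b encodes p27, the inhibitor of cyclin-dependent kinase 2 complexes that holds quiescent cells in G1. Raw signals of its brightest probe were 152.0 and 214.0 on control arrays, 232.5 and 216.2 on unstimulated arrays and 195.3 and 179.3 on stimulated arrays. Unstimulated arrays were the highest 2, and the control replicates lay far apart and spanned the stimulated arrays. The estimate in unstimulated against control cells was 0.48 ± 0.21 and did not pass (adjusted p = 0.106), and without control replicate 2, the higher control array, it was 0.75 and passed (adjusted p = 0.0395). Stimulated cells differed from control cells by 0.28 ± 0.21 (adjusted p = 0.336) and from unstimulated cells by -0.20 ± 0.21 (adjusted p = 0.860). A dimmer Cdkn1b probe, detected on 3 arrays, gave 0.29 ± 0.27 in unstimulated against control cells and 0.25 ± 0.27 in stimulated against unstimulated cells (adjusted p = 0.471 and adjusted p = 0.887 over all detected probes). The last Cdkn1b probe was detected on 0 arrays.

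Ccng2 encodes cyclin G2, an unusual cyclin that is high in arrested cells and is a direct FOXO target. Its probe read 363.8 and 354.5 on control arrays, 827.9 and 763.5 on unstimulated arrays and 688.0 and 812.3 on stimulated arrays. Every starved array was far above both control arrays. Ccng2 rose 2.50-fold in unstimulated cells (log2 fold change 1.32 ± 0.16 SE, 95% interval 0.96 to 1.68, adjusted p = 0.000682) and 2.60-fold in stimulated cells (1.38 ± 0.16, adjusted p = 0.000558). The step from unstimulated to stimulated cells was 0.054 ± 0.16 (adjusted p = 0.962), with a 95% interval of -0.31 to 0.41.

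Pdcd4 encodes a tumor suppressor protein that binds the helicase eIF4A and slows translation, and that is degraded after growth factor signalling. Its brightest probe read 410.2 and 396.5 on control arrays, 1397.4 and 1248.6 on unstimulated arrays and 978.2 and 1133.7 on stimulated arrays. The 3 groups did not overlap, with unstimulated arrays highest and control arrays lowest. Pdcd4 rose 3.76-fold in unstimulated cells (1.91 ± 0.16, 95% interval 1.55 to 2.27, adjusted p = 0.000112) and 3.30-fold in stimulated cells (1.72 ± 0.16, adjusted p = 0.000175). The difference between the starved groups, -0.19 ± 0.16, did not pass (adjusted p = 0.812). A second probe read 392.8 and 386.2 on control arrays and 995.6 to 1192.3 on starved arrays, and another read 244.8 and 229.0 on control arrays and 459.0 to 653.1 on starved arrays. Both rose in unstimulated against control cells as the brightest probe did, by 1.77 ± 0.18 and 1.62 ± 0.19 on the log2 scale (adjusted p = 0.000674 and adjusted p = 0.00141 over all detected probes). Their estimates in stimulated against unstimulated cells were -0.071 ± 0.18 and -0.019 ± 0.19, nearer 0 than that of the brightest probe. The fourth probe was near background, with raw signals of 85.1 to 125.3 and detection on the 2 unstimulated arrays only. It met the filter through the group where it was high, so it had to differ and adds no support.

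**Figure D2:**
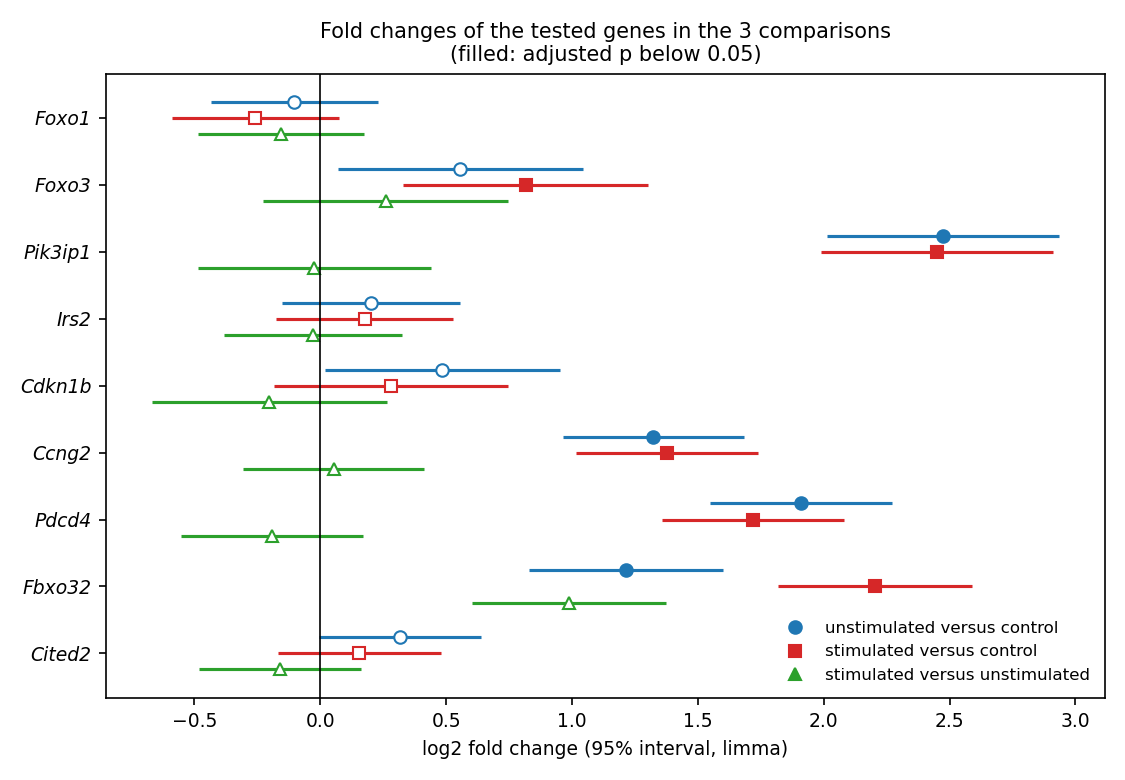
Log2 fold changes with 95% intervals from limma for the brightest probe of each tested gene in the 3 comparisons, filled where the adjusted p-value was below 0.05. For Pik3ip1, which was not detected in control cells, the plotted estimates against control are fitted values and the text gives bounds; only Fbxo32 has an interval above 0 in stimulated against unstimulated cells (0.60 to 1.37), and that estimate did not pass over all genes.

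Fbxo32 encodes atrogin-1, the substrate-binding F-box protein of an SCF ubiquitin ligase, best known as a FOXO target that drives protein breakdown in wasting muscle. Of the 9 genes it had the largest estimate on adding S100A8/A9. Its brightest probe read 131.7 and 125.0 raw units on control arrays, 213.2 and 199.8 on unstimulated arrays and 302.4 and 316.0 on stimulated arrays. The groups did not overlap and were ordered control, unstimulated, stimulated, with replicates close to each other in every group on this raw scale. On the normalized log2 scale the arrays lay at 6.03 and 5.61, 7.02 and 7.04, and 8.08 and 7.96. Fbxo32 rose 2.32-fold in unstimulated against control cells (1.21 ± 0.17 SE, 95% interval 0.83 to 1.60, adjusted p = 0.00145) and 4.60-fold in stimulated against control cells (2.20 ± 0.17, 95% interval 1.82 to 2.59, adjusted p = 6.07e-05). Both differences were smaller in the deposited log2 table, without background correction. Control arrays lay there at 7.07 and 6.88 and unstimulated arrays at 7.64 and 7.65. The difference of stimulated from control cells was 1.38 there, and it too passed (adjusted p = 3.87e-08).

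In stimulated against unstimulated cells the Fbxo32 estimate was 0.99 ± 0.17 (1.99-fold, 95% interval 0.60 to 1.37), which did not pass over all genes (adjusted p = 0.0988). It passed at 0.72 without background correction (adjusted p = 0.00722) and in the deposited log2 table (adjusted p = 0.00724), which hold nearly the same values and are no separate support. It also passed at 0.83 with a larger normexp offset (adjusted p = 0.0124) and at 0.99 when only genes detected on all 6 arrays were tested (adjusted p = 0.0392). It did not pass without any 1 of the 6 arrays, where the estimates ran from 0.93 to 1.05. Among all genes 18.5% had stimulated arrays above unstimulated arrays without overlap, so the separation of the arrays alone does not set Fbxo32 apart.

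A second Fbxo32 probe behaved differently between control and unstimulated arrays. It read 151.4 and 111.6 on control arrays, 145.3 and 110.4 on unstimulated arrays and 172.3 and 205.4 on stimulated arrays, and was detected on 1, 1 and 2 arrays of these groups. Unstimulated and control arrays overlapped fully, and stimulated arrays were above all others. Its log2 fold change was -0.093 ± 0.37 in unstimulated against control cells (adjusted p = 0.876 over all detected probes) and 1.25 ± 0.37 in stimulated against unstimulated cells (adjusted p = 0.447 over all detected probes). The intervals of -0.94 to 0.75 and 0.40 to 2.09 are wide because the replicates of both lower groups lay far apart. With the mean of both probes in place of the brighter one, Fbxo32 no longer passed in unstimulated against control cells (0.56, adjusted p = 0.119). The remaining Fbxo32 probe was detected on 0 arrays at the 0.01 threshold, with raw signals of 80.1 and 81.7 on control arrays, 87.8 and 107.0 on unstimulated arrays and 107.8 and 103.4 on stimulated arrays.

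**Figure D3:**
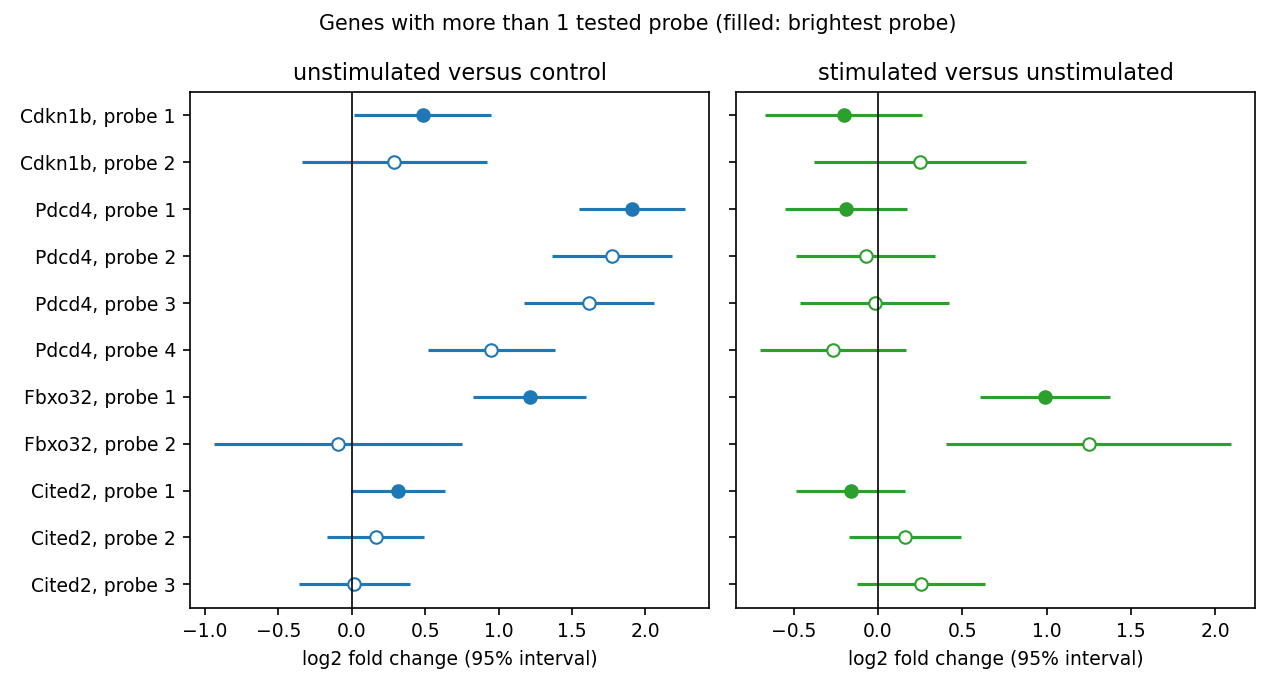
Log2 fold changes with 95% intervals for each tested probe of Cdkn1b, Pdcd4, Fbxo32 and Cited2 in 2 comparisons, with the brightest probe of each gene filled. The 4 Pdcd4 probes lie above 0 against control, the dimmest of them detected on unstimulated arrays only, whereas the Fbxo32 probes differ there (1.21 and -0.09) and lie together on adding S100A8/A9 (0.99 and 1.25).

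Cited2 encodes a nuclear protein that binds p300 and CBP and competes with HIF-1 for them, and it is a FOXO-responsive gene. Its brightest probe read 7674.9 and 9673.4 raw units on control arrays, 9906.5 and 9515.4 on unstimulated arrays and 7064.9 and 8527.3 on stimulated arrays. On this raw scale stimulated and control arrays overlapped, and 1 control array was above 1 unstimulated array. After normalization unstimulated arrays were above control arrays, and Cited2 differed by 0.32 ± 0.14 in unstimulated against control cells (adjusted p = 0.124) and by -0.16 ± 0.14 in stimulated against unstimulated cells (adjusted p = 0.826). The 2 other probes, detected on all arrays, had the opposite sign in the latter comparison, 0.16 ± 0.15 and 0.25 ± 0.17 (adjusted p = 0.846 and adjusted p = 0.773 over all detected probes). No Cited2 probe passed in any comparison, and with the 3 probes disagreeing in sign no direction is given for S100A8/A9.

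Promoters are shown for Ccng2, Pdcd4 and Pik3ip1, which rose in both starved groups and had a window, and for Irs2 because it held a match, with the letters that FOXO proteins are known to bind searched in them. RefSeq windows of 300 bases (250 before to 50 after the annotated start, build GRCm38.p6) were at hand for 8 of the 10 genes, in 9 windows. GTAAACA, the core of the classical FOXO element, and CAAAACA, the core of the insulin response element, were searched on both strands (TGTTTAC and TGTTTTG on the other strand), and the 2 motifs may share end bases but cannot match at the same position. GTAAACA was in 0 of the 9 windows, against 3.65% of all 32851 windows in the table. CAAAACA was in 3 of the 9, against 6.28% of all windows: Ccng2 and Pdcd4, which rose, and Irs2, which did not pass. Ccng2 (chr5:93267323-93267622, plus strand) carried it 16 bases before the start, in capitals here.
Ccng2: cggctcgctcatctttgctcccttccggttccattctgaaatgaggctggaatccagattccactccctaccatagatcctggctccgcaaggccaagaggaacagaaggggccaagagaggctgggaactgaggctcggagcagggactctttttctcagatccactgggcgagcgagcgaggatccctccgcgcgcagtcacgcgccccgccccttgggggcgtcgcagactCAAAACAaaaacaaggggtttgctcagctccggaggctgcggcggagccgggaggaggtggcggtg
Pdcd4 has 2 windows, and the downstream one (chr19:53903101-53903400, plus strand) carried CAAAACA with its first base at position 15 after the start.
Pdcd4: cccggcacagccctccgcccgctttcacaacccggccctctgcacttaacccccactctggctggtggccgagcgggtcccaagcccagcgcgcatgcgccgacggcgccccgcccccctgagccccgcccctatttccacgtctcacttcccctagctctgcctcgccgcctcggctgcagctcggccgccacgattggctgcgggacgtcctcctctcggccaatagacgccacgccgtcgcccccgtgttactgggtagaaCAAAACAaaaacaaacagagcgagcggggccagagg
In Irs2 the match was on the other strand, 37 bases before the start, shown with 20 bases to either side (chr8:11008940-11008986, minus strand).
Irs2: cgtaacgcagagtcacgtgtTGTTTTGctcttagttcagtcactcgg
Pik3ip1, called higher in both starved groups, had neither motif in its window (chr11:3330481-3330780, plus strand), so no letters are capitals.
Pik3ip1: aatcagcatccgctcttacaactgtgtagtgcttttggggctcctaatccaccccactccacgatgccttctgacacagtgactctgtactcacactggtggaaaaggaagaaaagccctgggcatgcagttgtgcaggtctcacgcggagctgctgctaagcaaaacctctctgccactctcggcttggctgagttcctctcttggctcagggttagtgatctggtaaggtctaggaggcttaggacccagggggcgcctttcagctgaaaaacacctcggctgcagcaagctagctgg
A match is a description of these letters and no evidence of binding, and a window without one says nothing of FOXO binding elsewhere at the gene.

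The wider pathway was followed through 4 lists of other genes, none of them members of the set above. Of 48 other FOXO target and quiescence genes, 35 were tested. In unstimulated against control cells 17 rose, 1 fell and 17 did not pass, that is 51.4% called where 30.8% of all genes were called either way. Their median log2 fold change was 0.45. Sesn3 and Mxd1, counted among the rises, were not detected in control cells and met the filter through starved arrays alone. Both therefore had to be higher and add no support to the count. They were at least 1.41-fold and 1.13-fold higher. Mxd4, a MAX-binding repressor of MYC targets, rose most (3.79 ± 0.17, adjusted p = 4.38e-06), and its other detected probes gave 3.01 and 3.06. Ddit4, an inhibitor of mTOR complex 1, rose by 1.71 ± 0.19 on the log2 scale (adjusted p = 0.000478). Bnip3l, a mitophagy receptor, rose by 1.42 ± 0.14 (adjusted p = 0.000275). Gadd45b, a stress-response gene, was the 1 that fell (-0.89 ± 0.16, adjusted p = 0.00403). Without unstimulated replicate 1 the count of called genes was 11 in place of 18.

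In stimulated against control cells 19 of the 35 rose and 2 fell (60% called, where 29.1% of all genes were called), with a median of 0.49. The 19 include Rbl2 and Sesn3, which were not detected in control cells and met the filter through starved arrays alone. These genes had to be higher (at least 1.26-fold and 1.23-fold) and add no support to the count. Mxd4 was at 3.37, Bnip3l at 1.37 and Ddit4 at 1.32 on the log2 scale, and the falls were Gadd45b (-0.69) and the mitochondrial peroxidase gene Prdx3 (-0.86). The count was 13 without stimulated replicate 2 or without control replicate 2. In stimulated against unstimulated cells none of the 35 was called (limma), and 5 had an unadjusted p-value below 0.05 (8.19% of all genes did). The smallest belonged to Rbl2, which encodes p130, the pocket protein of quiescent cells. Rbl2 was detected on the stimulated arrays only, met the filter through them alone, and was at least 1.43-fold higher than in unstimulated cells (adjusted p = 0.0527). Its normalized log2 intensities were 5.0 and 4.98 on unstimulated, 5.88 and 6.07 on stimulated and 5.29 and 5.18 on control arrays. The next was Sod2, the mitochondrial superoxide dismutase, at 0.51 ± 0.16 (adjusted p = 0.409).

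Upstream of FOXO, 27 of 43 listed insulin, PI3 kinase, AKT and mTOR genes were tested. In unstimulated against control cells 7 rose and 2 fell, 33.3% called, near the 30.8% of all genes, with a median of 0.13. The rises were led by the growth factor gene Igf2 (1.43 ± 0.15, adjusted p = 0.000371) and the tribbles pseudokinase genes Trib3 (1.25 ± 0.16, adjusted p = 0.000823) and Trib2 (0.95 ± 0.16, adjusted p = 0.00343). The falls were Pik3cb, a catalytic subunit of PI3 kinase (-0.56 ± 0.14, adjusted p = 0.0168), and the S6 kinase gene Rps6kb2 (-0.55 ± 0.16, adjusted p = 0.0316). Rps6kb2 was dim on unstimulated arrays, at log2 intensities of 5.33 and 5.66 beside lowest detected signals of 5.41 and 5.51. Igf2 was dim on control arrays, at 5.78 and 5.57 beside lowest detected signals of 5.76 and 5.52. Their fold changes rest in part on these dim signals. In stimulated against control cells 6 rose and 1 fell (25.9% called, where 29.1% of all genes were), with Trib2 at 1.40, Igf2 at 1.38, Trib3 at 1.16 and Pik3cb at -0.57. None was called on adding S100A8/A9 (limma, 3 with an unadjusted p-value below 0.05, where 8.19% of all genes had one). Rps6kb2 was there at 0.47 (adjusted p = 0.475) and the regulatory subunit gene Pik3r1 at 0.44 (adjusted p = 0.491, its other detected probe 0.075). Without 1 of the 4 arrays compared, the count of 9 in unstimulated against control cells was 4 or 5.

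Genes whose products act on FOXO proteins, among them 14-3-3 proteins, acetylases and ubiquitin ligases, made up a list of 34. Of the 25 tested, 1 rose and 1 fell in unstimulated against control cells, 8% called where 30.8% of all genes were, with a median of 0.011. Whether this share is lower than that of all genes was not tested. The acetylase gene Ep300 was at 0.50 ± 0.17 (adjusted p = 0.0486) and the 14-3-3 epsilon gene Ywhae fell by 0.94 on the log2 scale (adjusted p = 0.00451). In stimulated against control cells 2 fell (8% called, where 29.1% of all genes were), Ywhae (-0.83) and the deubiquitinase gene Usp7 (-0.49, adjusted p = 0.0333), and the other detected Usp7 probes were at -0.37 and -0.43. On adding S100A8/A9 none was called (limma, 1 with an unadjusted p-value below 0.05, where 8.19% of all genes had one). The deacetylase gene Sirt2 was there at -0.37 (adjusted p = 0.549) and Ep300 at -0.36 (adjusted p = 0.632). The count of 2 in unstimulated against control cells was 1 in 10 of 17 alternatives.

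Direct partners of the target proteins, such as the SCF core, eIF4A and cyclin-dependent kinase 2 with its cyclins, gave 20 tested genes of 25 listed. In unstimulated against control cells 1 rose, Ep300 again, and 5 fell, 30% called, near the 30.8% of all genes. Over all genes 17.1% were called higher and 13.7% lower. The largest falls of this list were in the cyclin genes Ccna2 by 1.19 ± 0.14, Ccne2 by 1.12 ± 0.16 and Ccne1 by 0.79 ± 0.20 on the log2 scale (adjusted p = 0.000704, adjusted p = 0.00155 and adjusted p = 0.0189). In stimulated against control cells 4 fell (20% called, where 29.1% of all genes were), with Ccne1 at -1.11, Ccne2 at -0.94 and Ccna2 at -0.63. None was called on adding S100A8/A9 (limma, 1 with an unadjusted p-value below 0.05, where 8.19% of all genes had one). Ccna2 was there at 0.56 ± 0.14 (adjusted p = 0.291), and Ccnd1 at -0.32 ± 0.14 (adjusted p = 0.609) with its other detected probes at 0.10 and 0.055. The count of 6 in unstimulated against control cells was 3 without unstimulated replicate 2 and 2 without either control replicate.

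**Figure D4:**
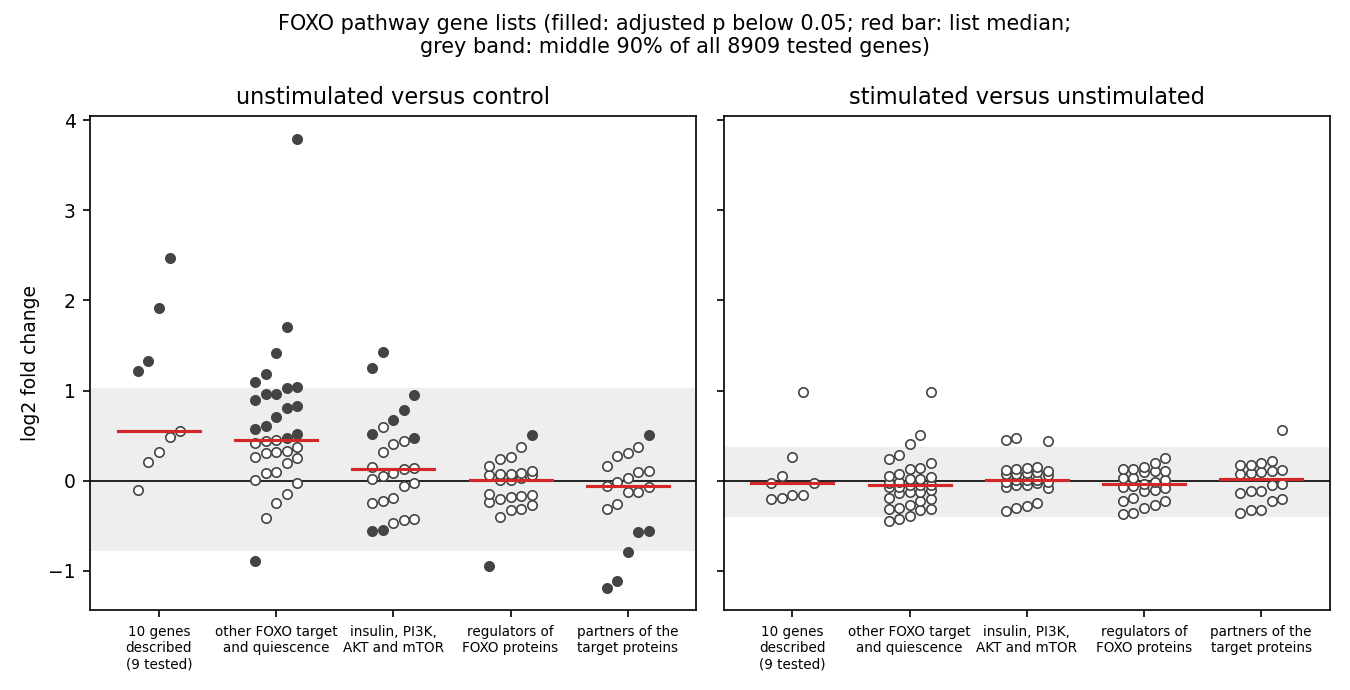
Log2 fold changes of the tested genes of the set and of the 4 lists in unstimulated against control cells and in stimulated against unstimulated cells, filled where the adjusted p-value was below 0.05, with list medians as red bars and the middle 90% of all tested genes as a grey band. Filled points appear in every list against control and in none on adding S100A8/A9.

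Profiles over the 6 arrays, each centred on its own mean, were compared for Pik3ip1 and for Fbxo32. Nearest to Pik3ip1 by root mean square distance were the stress-response gene Nupr1 (0.113 log2 units, r = 0.995), the interferon-inducible gene Ifi27 (0.150, r = 0.995) and Ip6k3 (0.158, r = 0.993), the last not detected in control cells. Pik3ip1 itself was not detected there either, so these distances rest in part on signals that did not reach detection. Nearest to Fbxo32 were the oligoadenylate synthetase gene Oas1g (0.156, r = 0.989), the metalloprotease gene Adamts7 (0.173, r = 0.992) and the PDGF receptor gene Pdgfra (0.225, r = 0.969). With 6 arrays and 8909 genes such values are a description only, since many genes separate the same groups. Oas1g, Adamts7 and Pdgfra were higher in stimulated than in unstimulated cells by 1.14, 0.67 and 0.59 on the log2 scale, and Fbxo32 by 0.99. These genes were picked for profiles near that of Fbxo32, so a step in the same direction followed from the choice and adds no support. None of these 4 was called there (limma, adjusted p = 0.106 for Oas1g and 0.262 for Adamts7 and Pdgfra).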

How the data were processed

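Per the file headers, the deposited table holds raw probe intensities and detection p-values of 6 arrays, with no normalization. A second deposited table holds log2 values, which matched quantile-normalized log2 raw signals to within 0.00203 on every probe. Per the labels' protocols, total RNA was amplified to biotin-labelled cRNA. No source used here names the software.

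Groups came from sample titles. In R 4.3.3 with limma 3.58.1, neqc corrected background (normexp, negative controls inferred from detection p-values, offset 16) and quantile-normalized. Of 45281 probes, 16355 had a detection p-value below 0.01 on at least 2 arrays, and 14157 of these had 1 symbol. One linear model of the 3 groups used the 6 arrays together (3 residual and 6.00 prior degrees of freedom). Other probes of a gene come from a fit of all 16355 probes. The steps were tested on simulated data. Probes were matched by gene ID and not by synonym, because some synonyms are shared between genes.

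The genes and lists were chosen with earlier results of these data known. Named list genes are, per list, the 3 called genes with the largest rise and the 3 with the largest fall against control, and, on adding S100A8/A9, those called or the 2 with the smallest p-values. Alternatives were background correction, offset, scaling, the deposited values, the detection filter, the probe rule, the arrays fitted, a replicate block and leaving out each array. The number of arrays limits precision. Promoter sequences are from RefSeq (GRCm38.p6).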

Additional observations from a re-analysis of the deposited data

How the results depend on the processing

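Across 17 alternatives the called rises of Pik3ip1, Pdcd4 and Ccng2 against control passed wherever they were tested, in both starved groups, with Pik3ip1 untested when detection on all 6 arrays was required. Counts of called genes against control stayed within 3 to 5 in unstimulated and 4 to 5 in stimulated cells. On adding S100A8/A9 the count was 1 in place of 0, Fbxo32 each time, in 4 alternatives. These were no background correction, the deposited log2 values, a normexp offset of 50 and detection on all 6 arrays. The first and second of these hold nearly the same values, and the cause was not tested. Leaving out any array gave 0. Estimates near 0 that never passed changed sign: on adding S100A8/A9, Pik3ip1 ran from -0.34 to 0.29 and Irs2 from -0.14 to 0.083 on leaving out an array (Pik3ip1 0.019 without stimulated replicate 1, Irs2 0.042 without unstimulated replicate 1), Cdkn1b at 0.022 and Cited2 at 0.085 with the mean of detected probes, and Ccng2 at -0.059 with median scaling. Foxo1 in unstimulated against control cells ran from -0.21 to 0.0077 on leaving out an array, and Cited2 in stimulated against control cells at -0.080 with median scaling. Foxo3 against control lost its call in stimulated cells with no detection filter (adjusted p = 0.0543). Median scaling put the median of all genes at -0.13 in stimulated against unstimulated and -0.11 in stimulated against control cells, in place of -0.0077 and -0.0088, and gave 8 higher and 7 lower genes in place of 7 and 0, and 960 higher and 1292 lower in place of 1417 and 1172. Without background correction 30 genes were higher and 14 lower on adding S100A8/A9. With an offset of 50 these counts were 25 and 11, and with detection on all 6 arrays 15 and 2. Leaving out an array gave 4 to 8 called genes there, 1366 to 2831 in place of 2746 in unstimulated against control cells and 1554 to 2324 in place of 2589 in stimulated against control cells. Same-numbered replicates did not deviate together (r from -0.040 to -0.0088), so the numbers do not pair the arrays. With replicate number as a block, 0, 5 and 5 of the 9 genes were called in place of 0, 4 and 5, the added gene being Foxo3 in unstimulated against control cells (adjusted p = 0.0428). Dim probes near background, among them Foxo4, limit what can be said of those genes.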

Other observations

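The Ccng2 window and the downstream Pdcd4 window shared a run of 14 identical bases, CAAAACAAAAACAA, which holds the CAAAACA match in both. This was noticed after the fold changes were seen. The run was in 12 of the 32851 windows on either strand (0.0365%), belonging to 12 genes, of which 3 were tested on these arrays. Ccng2 and Pdcd4 rose in unstimulated against control cells, and Slc44a2, a choline transporter-like gene, was at -0.14 ± 0.16 (limma, adjusted p = 0.516). With 3 tested genes no relation between the run and the response to reduced serum could be tested.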
